A study of Mus musculus with 2 samples.

Results

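Stra8-positive germ cells of the fetal testis at embryonic stage E12.5 were 76 of the 2494 germ cell barcodes in the E12.5 library, out of 5839 barcodes in the series. They were chosen for carrying 2 or more UMIs of Stra8 (a UMI is a molecule counted by its own identifier), so their Stra8 level is a choice and not a finding. A germ cell barcode had at least 500 genes, at least 5000 UMIs, under 10% mitochondrial UMIs, and at least 0.2% of its UMIs from Dazl, Pou5f1, Dppa3 and Dppa5a together. The Stra8-positive cells were set against the 2349 germ cells of the same library with 0 Stra8 UMIs, and 69 germ cells with 1 Stra8 UMI were kept out of both sets. All cells came from male CD1 embryos, an outbred mouse stock, and had been sorted by FACS for Oct4GFP, a fluorescent reporter of the germ cell gene Pou5f1. They were profiled with the 10x v2 droplet assay, which reads the 3' ends of transcripts. A library from E13.5 male CD1 embryos, sorted and prepared likewise, held 21 Stra8-positive cells among 2549 germ cells by the same rule and 2466 with 0 Stra8 UMIs. The labels do not say how many embryos were pooled. Each stage is a single library, so nothing below was replicated or tested, and each interval below is a 95% interval of counting error only.

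Stra8 (stimulated by retinoic acid 8) encodes a nuclear protein that, with its partner Meiosin, switches on the meiotic programme. In the fetal ovary retinoic acid and BMP signals induce it, and germ cells then load the meiotic cohesin Rec8 and build the synaptonemal complex from Sycp1, Sycp3 and their partners. In the fetal testis the enzyme Cyp26b1 of somatic cells degrades retinoic acid, and germ cells follow the male pathway, marked by Nanos2, and leave the cell cycle without entering meiosis.

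Stra8 lies on chromosome 6 at chr6:34920163-34939344, plus strand, in GRCm38. Retinoic acid receptors bind repeats of the hexamer AGGTCA, and the sites next to Stra8 are shown because the cells were chosen by this gene. In the 250 bases before the RefSeq start of Stra8 (GRCm38.p6) the exact hexamer, searched on both strands, occurred at 194 and 38 bases before the start. Of 27025 RefSeq promoters of the same length, 13.8% held at least 1 match and 1.32% held at least 2. Both windows lie inside an upstream exon of a longer transcript in GENCODE vM21. They read as follows, with the hexamer in capitals, at chr6:34920744-34920769 and chr6:34920900-34920925, plus strand.
Stra8 distal: tggggtgaaaAGGTCAtcttgctcct
Stra8 proximal: ctggggtaccAGGTCAgttttttacc

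Most Stra8-positive cells carried few Stra8 molecules. Of the 76 cells, 21 held 2 UMIs, 20 held 3, 12 held 4 and 8 held 5, and the 2 highest held 14. Their Stra8 level was 31.7 CPM (UMIs scaled to 1000000 per cell or per set) in the lowest cell, 171 CPM in the median cell and 959 CPM in the highest. Together they held 323 of the 392 Stra8 UMIs of the E12.5 germ cells (82.4%). As a measure of free RNA, none of the 11 E12.5 barcodes that failed the germ cell rule through the germ marker share alone had a Stra8 UMI, at a median depth of 10901 UMIs, which allows a share of up to 27.3% (3 barcodes).

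The 2 sets were close in depth and in Y-linked transcripts. The median depth was 22291 UMIs per Stra8-positive cell (5214 to 63150) and 23592 per 0-Stra8 cell (5053 to 60475), with medians of 4450 and 4535 genes. Mitochondrial UMIs had medians of 3.57% and 3.87%, and the 4 germ cell genes, which chose the cells of both sets, 0.593% and 0.588%. Summed Y-linked transcripts stood at 124.8 and 118.5 CPM, a ratio of 1.05 (0.917 to 1.20). At least 1 Y-linked UMI was found in 92.1% of Stra8-positive cells and 91.5% of 0-Stra8 cells, while Xist, the RNA that silences an X chromosome in female cells, was seen in 0 of 76 Stra8-positive cells, which allows a share of up to 3.95%, and in 2.55% of 0-Stra8 cells, a gap not detectable with this many cells. Scrublet called 3 of the 76 Stra8-positive cells doublets.

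Most markers of testicular somatic cells were near 0 on both sides. The 12 Sertoli markers summed to 16.3 CPM in Stra8-positive and 15.1 CPM in 0-Stra8 cells, with 9 of the 12, including the defining Sox9, Amh and Dhh, at 0 in the Stra8-positive cells. Cldn11, a tight-junction gene on that list, had 9 UMIs in them and was 5.49-fold higher (2.38 to 11.3). Of 8 measured pregranulosa markers, summed at 10.1 and 12.3 CPM, Wnt4, Bmp2, Runx1 and Lgr5 were at 0 in the Stra8-positive cells. Of 7 measured endothelial markers, summed at 100.6 and 99.5 CPM, Pecam1, which germ cells also express, gave 93.3 and 76.3 CPM, and Cdh5, Kdr, Tek and Esam were at 0 in the Stra8-positive cells. Macrophage, Leydig, interstitial, erythroid, mural and surface epithelial sums were each under 10 CPM in both sets. The mesonephric sum was 56.8 and 86.6 CPM, mostly Lhx1, with Pax2 and Emx2 at 0 in the Stra8-positive cells.

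Across the transcriptome the Stra8-positive cells stood close to their neighbours, and a small share of genes differed. Of 6876 genes at 10 CPM or more in the 0-Stra8 cells (Stra8 left out), 204 were at least 1.5-fold higher in Stra8-positive cells with an interval above 1 (2.97%). Another 232 were at least 1.5-fold lower with an interval below 1 (3.37%), and 6368 (92.6%) lay within 1.5-fold. The median log2 ratio over all genes compared was -0.02. These shares are the background for each gene list below at 10 CPM or more, and not for scarcer genes. With no minimum level, 696 of 16152 genes were higher and 309 lower. Calls on genes under 10 CPM thus lean to the higher side, since few UMIs leave little room for a lower call. Scaling changed the balance of the 2 counts, to 152 higher and 320 lower with TMM factors, and to 265 and 186 with a denominator that leaves out the most abundant genes. When each gene was recomputed without the cell that held most of it, the counts became 130 and 394, and with every cell of 1 or more Stra8 UMIs counted as positive they became 95 and 114.

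Genes of meiotic entry and of the meiotic chromosome axis were the list with most members on the higher side. Of 16 measured at 10 CPM or more, 6 were at least 1.5-fold higher, 0 were lower and 10 lay between, with a median log2 ratio of 0.40. Over the 27 genes with 3 or more UMIs in each set, whatever their level, the median was 0.38; this minimum keeps out genes scarce in the Stra8-positive cells, so no count is read from it. Summed over the list, the level was 1595 CPM in Stra8-positive and 1122 CPM in 0-Stra8 cells, a ratio of 1.42 (1.37 to 1.48).

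Rec8, at chr14:55618037-55625395, replaces the mitotic kleisin in meiotic cohesin. It was found in 22 of 76 Stra8-positive cells (28.9%) and in 6.64% of 0-Stra8 cells. Its level per cell was 0 CPM in the lowest and the median cell of both sets, and 296 CPM in the highest Stra8-positive cell against 228 CPM in the highest 0-Stra8 cell. The ranges therefore overlapped, and a larger share of Stra8-positive cells had the transcript. The cells with Rec8 held 37 UMIs in 22 Stra8-positive cells, and 170 UMIs in 156 0-Stra8 cells. Summed, Rec8 stood at 20.8 CPM in Stra8-positive and 3.01 CPM in 0-Stra8 cells, 6.91-fold higher (4.71 to 9.91). With every cell thinned to 15000 UMIs, Rec8 was seen in 24.6% of 69 Stra8-positive cells (7 shallower cells left out) and 4.34% of 2167 0-Stra8 cells (182 left out).

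Sycp3, which forms the lateral element of the synaptonemal complex, was carried by most cells of both sets. Its level per Stra8-positive cell was 0, 89.7 and 741 CPM (lowest, median, highest), and per 0-Stra8 cell 0, 41.4 and 368 CPM. The median cell was thus higher among Stra8-positive cells, with overlapping ranges. Summed, it stood at 98.9 and 47.4 CPM, 2.09-fold higher (1.78 to 2.43). Sycp1, the transverse filament that joins paired axes, stood at 58.5 and 25.0 CPM, 2.34-fold higher (1.90 to 2.86), and was seen in 44 of 76 and in 36.2% of cells. Smc1b, the meiotic cohesin subunit, stood at 224.9 and 132.4 CPM (1.70-fold, 1.53 to 1.88).

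Other members of the list differed less or were scarce. Tex15, needed for meiotic recombination, was 1.73-fold higher (1.38 to 2.15), Syce3, a central element protein, 1.62-fold (1.15 to 2.23) and the RNA-binding protein Rbm46 1.51-fold (1.29 to 1.76). Under 10 CPM in the 0-Stra8 cells, Meioc, which stabilises meiotic transcripts, was 2.29-fold higher (1.34 to 3.70) and the axis protein Sycp2 1.83-fold (1.10 to 2.87). Syce2, the most abundant member, stood at 391.8 and 305.2 CPM, a ratio of 1.28 (1.19 to 1.39). Dmc1, the recombinase of meiotic strand exchange, had 11 UMIs in the Stra8-positive cells and a ratio of 1.30 (0.640 to 2.36), and Spo11, which cuts the DNA, had 3 UMIs and a ratio of 0.588 (0.120 to 1.75). Meiosin, listed as Gm4969, had 1 UMI in all 76 cells, too few to compare.

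**Figure D1:**
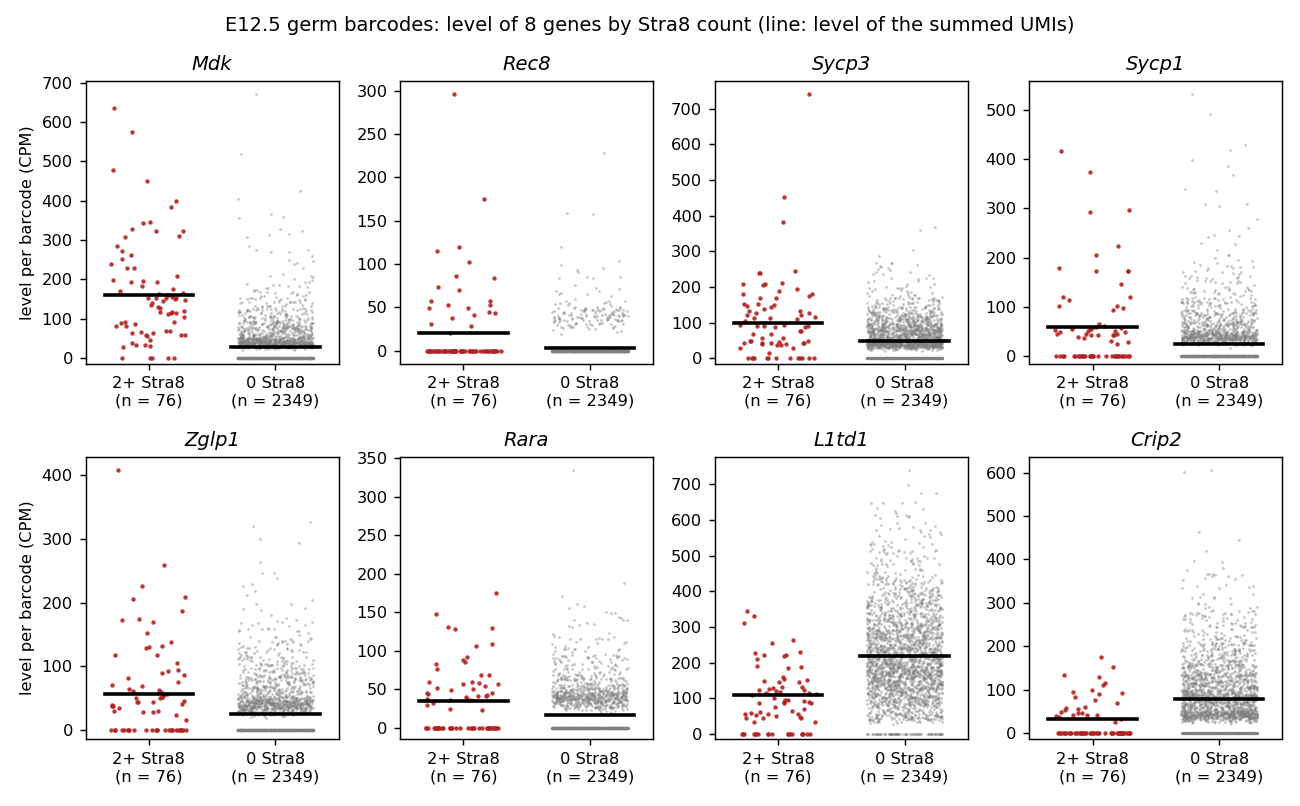
Level per cell in CPM (linear axis) of 8 genes in the 76 Stra8-positive cells (left, red) and the 2349 cells with 0 Stra8 UMIs (right, grey) at E12.5; each dot is a cell and each black line the level of the summed UMIs. The ranges overlap for every gene; the Mdk line stands at 161 CPM on the left and 27.2 CPM on the right, and the lines of L1td1 and Crip2 are lower on the left.

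Retinoic acid pathway genes were mostly scarce. Of 25 measured, 4 reached 10 CPM in the 0-Stra8 cells, of which 1, Rara, was higher and 0 were lower (median 0.12), and the list summed to 170.9 CPM in Stra8-positive and 144.8 CPM in 0-Stra8 cells. Rara, the retinoic acid receptor alpha, stood at 34.9 CPM in Stra8-positive and 16.6 CPM in 0-Stra8 cells, 2.10-fold higher (1.59 to 2.71), and was seen in 38 of 76 and in 31.4% of cells. Its level per cell was 0, 11.3 and 176 CPM (lowest, median, highest) in Stra8-positive cells, and 0, 0 and 335 CPM in 0-Stra8 cells. The receptors Rxrb and Rarg had ratios of 0.968 (0.715 to 1.28) and 0.498 (0.135 to 1.29), and Rxrg had 3 UMIs and a ratio of 11.9 (2.03 to 49.6). Cyp26b1 had 0 UMIs in the Stra8-positive cells and stood at 0.230 CPM in the others. Crabp1, a retinoic acid-binding protein of the cytoplasm, had a ratio of 1.22 (0.849 to 1.70).

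Targets of BMP signalling included several of the higher genes. Of 8 list members at 10 CPM or more, 2 were higher (Id1 and Zglp1), 0 were lower and 6 lay between, with a median log2 ratio of 0.36. Id1, an inhibitor of basic helix-loop-helix factors and a direct BMP target, stood at 45.0 CPM in Stra8-positive and 13.0 CPM in 0-Stra8 cells, 3.46-fold higher (2.72 to 4.37). Its relatives Id4 and Id2 were 3.43-fold (2.27 to 5.0) and 2.14-fold higher (1.44 to 3.08) from levels under 10 CPM, and the abundant Id3 had a ratio of 1.40 (1.28 to 1.53). Zglp1, a GATA-like zinc finger factor of the oogenic programme downstream of BMP, was 0, 44.0 and 409 CPM per Stra8-positive cell (lowest, median, highest), and 0, 0 and 326 CPM per 0-Stra8 cell. Summed, it stood at 56.2 and 25.0 CPM, 2.25-fold higher (1.81 to 2.75). The signal transducer Smad1 went the other way, at 2.81 and 8.94 CPM, with 5 UMIs in the Stra8-positive cells (ratio 0.314, 0.102 to 0.738).

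Mdk, midkine, a secreted heparin-binding growth factor identified as a retinoic acid-responsive gene, had the highest ratio of all genes compared that the naming rule admits. It lies at chr2:91929805-91932297, minus strand. Its level per Stra8-positive cell was 0, 146 and 635 CPM (lowest, median, highest), and per 0-Stra8 cell 0, 0 and 671 CPM. It was seen in 71 of 76 Stra8-positive cells (93.4%) and in 39.6% of 0-Stra8 cells, and after thinning in 92.8% and 28.6%. The median Stra8-positive cell thus stood above most 0-Stra8 cells, although the highest cell of all was a 0-Stra8 cell. Summed, Mdk stood at 160.8 and 27.2 CPM, 5.91-fold higher (5.19 to 6.71). Stra8-positive cells with Rara all carried Mdk as well (38 of 38), and 20 of the 22 with Rec8 did. Both lie near the share over all Stra8-positive cells (71 of 76), so no link between the genes is read from them.

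The next highest genes had ratios between 2.12 and 3.63. Calcoco2, an autophagy receptor, stood at 39.4 CPM in Stra8-positive and 10.9 CPM in 0-Stra8 cells (3.63-fold, 2.79 to 4.65). Nr6a1, the orphan receptor GCNF known as a repressor of Pou5f1, stood at 55.7 and 19.4 CPM (2.88-fold, 2.32 to 3.53) in 58 of 76 and 35.1% of cells, while Pou5f1 itself, a gene of the gate, had a ratio of 0.971 (0.906 to 1.04). Acaa1b, a peroxisomal thiolase, was 3.31-fold higher (2.55 to 4.23), while its near-identical copy Acaa1a, from which reads may not be fully separated, had a ratio of 0.888 (0.663 to 1.17). Brdt, a testis-specific bromodomain protein, was 2.26-fold higher (1.84 to 2.76). The transcriptional regulators Mxd4 (a MAX partner), Nacc2 and Zbtb20 were 2.57-fold (1.87 to 3.45), 2.46-fold (1.88 to 3.17) and 2.23-fold higher (1.70 to 2.87). Ddah2, Tex13 and the endoplasmic reticulum protein Reep5 were 2.47-fold, 2.19-fold and 2.12-fold higher. Phlda2, an imprinted growth regulator, was 2.40-fold higher (1.82 to 3.11) but was seen in 24 of 76 cells, and its highest cell, at 1438 CPM, was a 0-Stra8 cell.

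Some of the higher genes carry a short promoter motif, CACGTG, which is bound by MAX dimers. Among these dimers is the MGA complex that represses meiotic genes in germ cells and embryonic stem cells of the mouse. Of the 15 highest genes, Mxd4, Sycp1, Brdt and Zglp1 had CACGTG, and Acaa1b, Nr6a1, Ddah2, Nacc2, Phlda2 and Zbtb20 did not. Mdk, Calcoco2, Id1, Tex13 and Reep5 had no RefSeq promoter to search. Rec8, Smc1b and Syce3 also lacked CACGTG. The windows are shown for the synaptonemal genes Sycp1 and Sycp3 and for Zglp1 and Brdt, with the motif in capitals, 5′ to 3′ on the strand of the gene (RefSeq, GRCm38.p6). They lie at chr3:102936179-102936204 (minus), chr10:88459513-88459538 and chr10:88459534-88459559 (plus), chr9:21067203-21067228 (minus) and chr5:107331106-107331131 (plus).
Sycp1: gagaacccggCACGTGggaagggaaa
Sycp3 distal: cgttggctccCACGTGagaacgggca
Sycp3 proximal: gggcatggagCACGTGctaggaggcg
Zglp1: acagcgccccCACGTGacctgcgccg
Brdt: caggcacagtCACGTGgcagaccctg
The motif is its own reverse complement, and in Zglp1 it overlaps an AGGTCA on the other strand. In the 250 bases before the start it was found for 21 of the 157 higher genes that had a RefSeq promoter (13.4%). It was found for 14 of 178 lower genes (7.87%), 472 of 5023 genes between (9.40%) and 6.05% of all 27025 promoters. Of 27 measured meiosis list genes with a promoter, 8 had it (29.6%), among them Hormad1 and Stag3, whose ratios were 1.40 (1.13 to 1.73) and 1.28 (1.05 to 1.54). The STRA8-MEIOSIN motif CNCCTCAG, searched on both strands, was found for 12 of the 157 higher genes (7.64%), 4 of the 27 meiosis list genes (14.8%), 6.96% of the genes compared and 6.39% of all promoters. AGGTCA was found for 10 of the 157 (6.37%), 3 of the 27 (11.1%), 9.78% of the genes compared and 13.8% of all promoters. A match is a description of the letters and not a site of binding.

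Among genes under 10 CPM in the 0-Stra8 cells, those seen in the most Stra8-positive cells with an interval above 1 were Ppic, Iqcg, Platr26, Baz1a, Got1l1, Mlycd, Tle6, Meis2, Tmem37 and Eea1. They were seen in 28 to 38 of the 76 cells, with ratios from 2.27 to 3.12. Baz1a is a chromatin remodelling subunit, Tle6 a component of the oocyte's subcortical maternal complex and Meis2 a homeobox factor. Tet2 and Tet3, which oxidise methylated cytosine, were both scarce and higher. Tet2 had 26 UMIs in 22 Stra8-positive cells, at 14.6 and 3.22 CPM (4.54-fold, 2.88 to 6.86), and Tet3 had 7 UMIs in 7 cells (10.1-fold, 3.64 to 24.5). The abundant Tet1 stood at 150.7 and 111.5 CPM, a ratio of 1.35 (1.19 to 1.53). Of 27 DNA methylation and chromatin genes at 10 CPM or more, 0 were higher and 0 lower.

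Crip2, a LIM domain protein, was the most abundant in 0-Stra8 cells of the 15 genes with the lowest ratios. Its level per Stra8-positive cell was 0, 0 and 174 CPM (lowest, median, highest), and per 0-Stra8 cell 0, 59.4 and 606 CPM. It was seen in 27 of 76 Stra8-positive cells (35.5%) and in 74.3% of 0-Stra8 cells, at 30.9 and 79.0 CPM in sum (ratio 0.392, 0.295 to 0.511). The median Stra8-positive cell had no Crip2 UMI, and no Stra8-positive cell came near the highest 0-Stra8 cell.

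The other 14 lowest genes had 6 to 13 UMIs each in the Stra8-positive cells, against 11.0 to 19.4 CPM in the 0-Stra8 cells, so their ratios of 0.204 to 0.378 are loosely bounded. They included the BMP ligand Bmp7 at 5.62 and 18.1 CPM (ratio 0.311, 0.149 to 0.574) and Tdgf1, the Nodal co-receptor Cripto, at 3.94 and 12.3 CPM (0.319, 0.128 to 0.661). The amino acid transporter subunit Slc7a7 (0.252), the pyridoxal kinase Pdxk (0.299), the kinase Plk3 (0.339), the integrin activator Fermt1 (0.377) and the secreted protein Egfl7 (0.378) were also among them. Rilpl1 had the lowest ratio (0.204, 0.0818 to 0.421), with Pomgnt1, Plekha2, Iffo2, Igsf21, N4bp3 and the histone gene Hist1h2bc, a member of a multigene family, between it and Crip2.

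**Figure D2:**
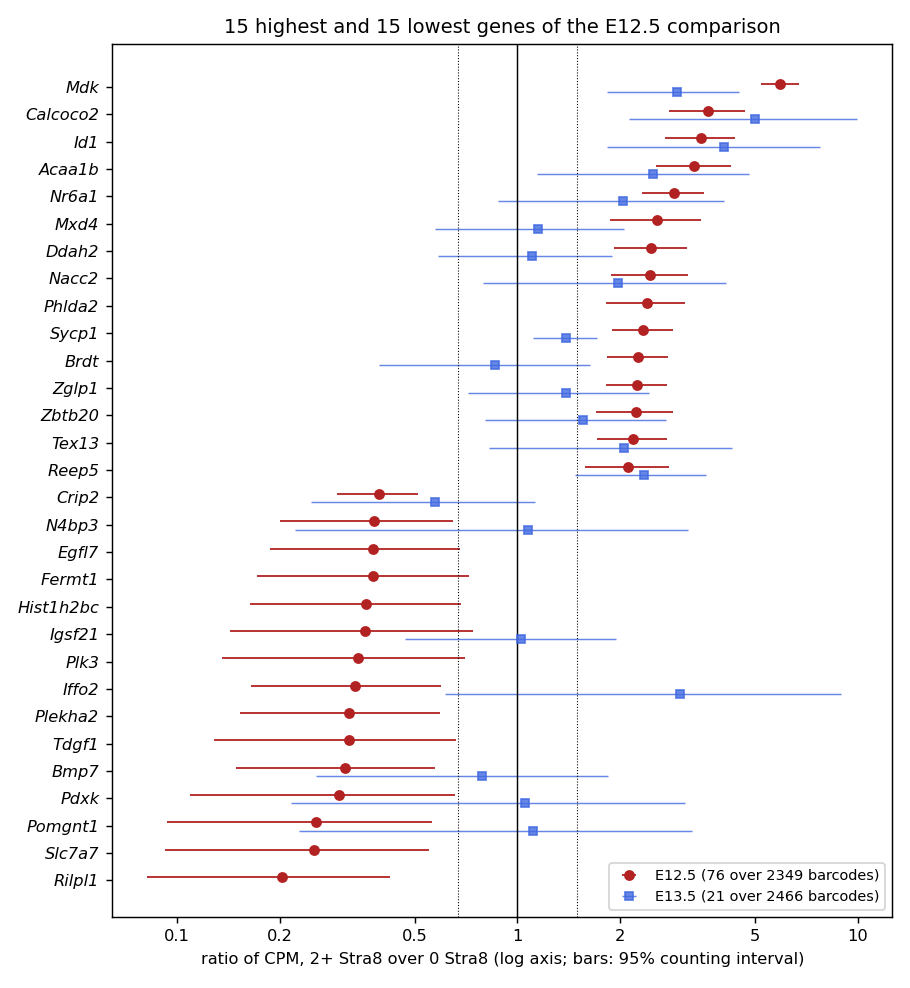
Ratio of CPM in Stra8-positive over 0-Stra8 cells on a log axis for the 15 highest and 15 lowest genes at E12.5 (red circles), with the same ratio at E13.5 (blue squares, drawn where the E13.5 Stra8-positive cells held 3 or more UMIs); bars are 95% counting intervals and dotted lines mark 1.5-fold. Mdk, Calcoco2, Id1, Acaa1b, Sycp1 and Reep5 have intervals above 1 at both stages, while the E13.5 ratios of the lowest genes have wide intervals.

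Pluripotency genes, which germ cells keep until they differentiate, were mostly level. Of 21 at 10 CPM or more, 0 were higher, 2 were lower (L1td1 and Tdgf1) and 19 lay between, with a median log2 ratio of -0.06. L1td1, an RNA-binding protein of pluripotent cells, was 0, 88.8 and 344 CPM per Stra8-positive cell (lowest, median, highest) and 0, 199.9 and 741 CPM per 0-Stra8 cell. Summed, it stood at 108.5 and 220.0 CPM, a ratio of 0.493 (0.426 to 0.568). Utf1, a chromatin factor of pluripotent cells, stood at 574.5 and 782.5 CPM (ratio 0.734, 0.689 to 0.781). Nanog and Sox2 had ratios of 0.984 (0.744 to 1.28) and 0.968 (0.840 to 1.11).

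Of 17 primordial germ cell genes, 1 was higher, Alpl, the alkaline phosphatase used to stain these cells (1.93-fold, 1.60 to 2.32), and 0 were lower. Kit, the receptor of early germ cells, had a ratio of 1.08 (0.862 to 1.34). Of 17 postmigratory germ cell genes, 3 were higher (Brdt, Sycp3 and Mael, 1.52-fold, 1.31 to 1.75) and 0 lower; Sycp3 is on the meiosis list too. That list summed to 1322 CPM in Stra8-positive and 1070.3 CPM in 0-Stra8 cells, a ratio of 1.24 (1.19 to 1.29). The RNA helicase Ddx4 had a ratio of 1.17 (1.0 to 1.36). Below 10 CPM, the piRNA factor Tdrd1 was 2.81-fold higher (1.5 to 4.86) in 14 of 76 cells. Dazl, which belongs to the gate, stood at 952.9 and 795.0 CPM, a ratio of 1.20 (1.14 to 1.26).

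The male germline list was split. Of 8 genes at 10 CPM or more, 1 was higher, Lefty1, and 1 lower, Tdgf1, both of the Nodal pathway, which is active in male germ cells at this stage. Lefty1, a Nodal antagonist, stood at 150.7 CPM in Stra8-positive and 90.5 CPM in 0-Stra8 cells (1.66-fold, 1.47 to 1.88), while its relative Lefty2 stood at 215.9 and 235.9 CPM (ratio 0.915, 0.825 to 1.01). These 2 genes are close relatives that reads may not fully separate. Nanos2 had 0 UMIs in the Stra8-positive cells and stood at 0.336 CPM in the others, under what this depth can compare; at E13.5 it stood at 28.9 CPM in Stra8-positive and 25.7 CPM in 0-Stra8 cells (ratio 1.12, 0.538 to 2.07).

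**Figure D3:**
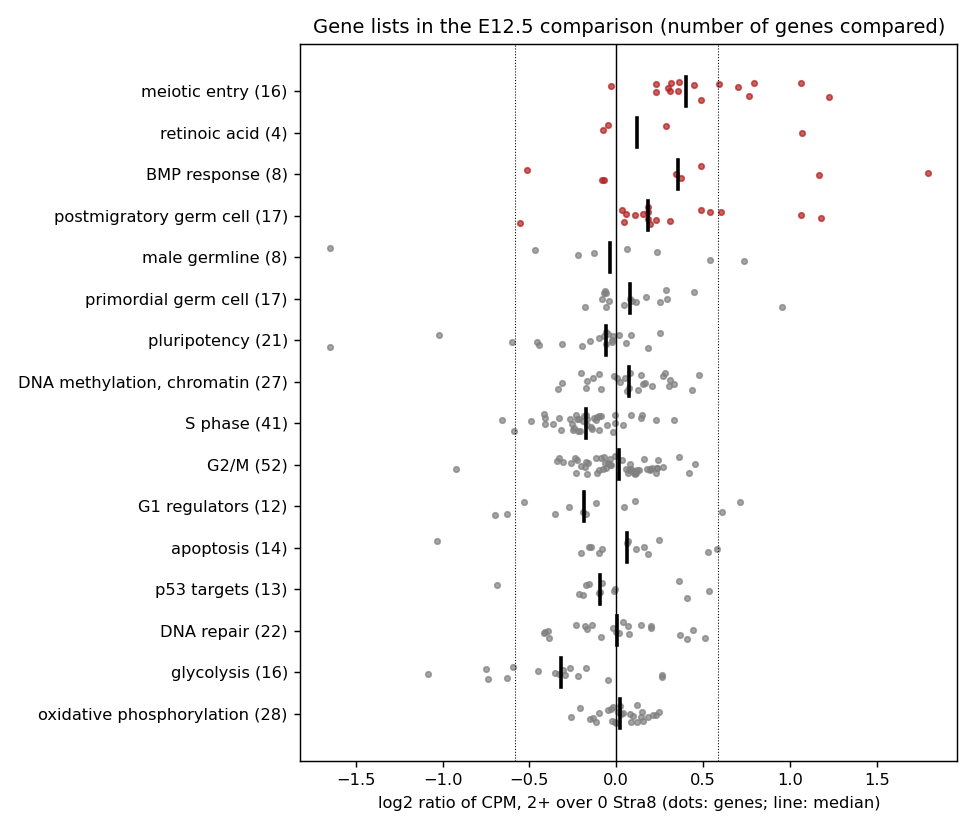
Log2 ratio of CPM in Stra8-positive over 0-Stra8 cells at E12.5 for each gene at 10 CPM or more (dots, red for the first 4 lists and grey for the rest) of 16 lists, with the list median as a black line and dotted lines at 1.5-fold. Meiotic entry and BMP response have medians of 0.40 and 0.36, glycolysis has -0.32, and most lists lie near 0.

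Cell cycle genes differed by less than 1.5-fold with few exceptions. Of 41 S phase genes, 0 were higher and 2 lower, the ribonucleotide reductase subunit Rrm2 (0.664, 0.556 to 0.788) and E2f8 (0.634, 0.400 to 0.956), with a median log2 ratio of -0.18. Of 52 G2/M genes, 0 were higher and 1 lower, the phosphatase Cdc25c (0.527, 0.300 to 0.861), with a median of 0.01. The proliferation marker Mki67 stood at 192.3 and 178.8 CPM (ratio 1.08, 0.963 to 1.20). Among 12 regulators of G1, the inhibitors Cdkn1c (1.64-fold, 1.23 to 2.15) and Rb1 (1.53-fold, 1.10 to 2.07) were higher and cyclin E1, Ccne1, was lower (0.617, 0.480 to 0.781). Cdk4, the most abundant of them, stood at 281.1 and 406.8 CPM (ratio 0.691, 0.631 to 0.755). Phase calls from these scores put 19 of 76 Stra8-positive cells in S (25.0%) and 55 in G2/M (72.4%), against 29.5% and 70.1% of 0-Stra8 cells.

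Cell death is the subject of the series. Of 14 apoptosis genes at 10 CPM or more, 0 were higher. Bax, the pore-forming effector, stood at 479.5 and 506.8 CPM (ratio 0.946, 0.883 to 1.01). Under 10 CPM, where calls lean to the higher side, the BH3-only genes Bik and Bmf were 3.26-fold (1.92 to 5.24) and 2.30-fold higher (1.36 to 3.67). They were seen in 14 and 18 of 76 cells. Of 13 p53 targets, 0 were higher and 1 lower, Tigar, which limits glycolysis (0.622, 0.512 to 0.748). Of 22 DNA repair genes, 0 were higher and 0 lower.

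Glycolysis was the list with most members on the lower side. Of 16 genes, 0 were higher and 4 lower, with a median log2 ratio of -0.32, and their sum stood at 3045 CPM in Stra8-positive and 3821 CPM in 0-Stra8 cells, a ratio of 0.797 (0.776 to 0.819). The 4 were the glucose transporter Slc2a1 (0.599, 0.386 to 0.889), the hexokinase Hk1 (0.595, 0.406 to 0.843), the phosphofructokinase Pfkp (0.472, 0.274 to 0.759) and the lactate dehydrogenase subunit Ldhb (0.663, 0.602 to 0.728). Of 28 oxidative phosphorylation genes, 0 were higher and 0 lower (median 0.02). Fabp5, a carrier of fatty acids that also binds retinoic acid, stood at 93.9 and 204.3 CPM (ratio 0.459, 0.392 to 0.535), and Slc25a5, the mitochondrial ADP/ATP carrier, at 338.4 and 569.9 CPM (0.594, 0.547 to 0.644). These last 2 genes were named after their values were seen.

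Levels were also followed over the number of Stra8 UMIs per cell, in 2349 cells with 0, 69 with 1, 21 with 2, 20 with 3, 20 with 4 to 5 and 15 with 6 or more. Mdk stood at 27.2, 47.8, 132.6, 103.8, 207.9 and 221.5 CPM in that order. Rec8 stood at 3.01, 11.9, 5.77, 19.1, 28.4 and 36.4 CPM, and Sycp3 at 47.4, 64.4, 78.8, 93.2, 124.7 and 103.2 CPM. Both were lowest at 0 Stra8 UMIs, and from 1 UMI on each class overlapped the next in its counting interval. The Rec8 value at 2 Stra8 UMIs rests on 3 UMIs (1.19 to 16.8 CPM), and its interval also includes the level at 0. Zglp1 stood at 25.0, 40.5, 63.4, 67.8, 54.7 and 30.3 CPM. Its last value rests on 10 UMIs (14.6 to 55.8 CPM) and overlaps every other class in its counting interval, so no fall is read from it. Crip2 stood at 79.0, 48.4, 42.3, 25.4, 32.8 and 18.2 CPM and Fabp5 at 204.3, 148.6, 101.9, 108.1, 98.5 and 54.6 CPM. Just across the threshold, cells with 2 and cells with 1 Stra8 UMI thus stood at 132.6 and 47.8 CPM of Mdk. For Rec8 these 2 classes stood at 5.77 and 11.9 CPM, with overlapping intervals.

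**Figure D4:**
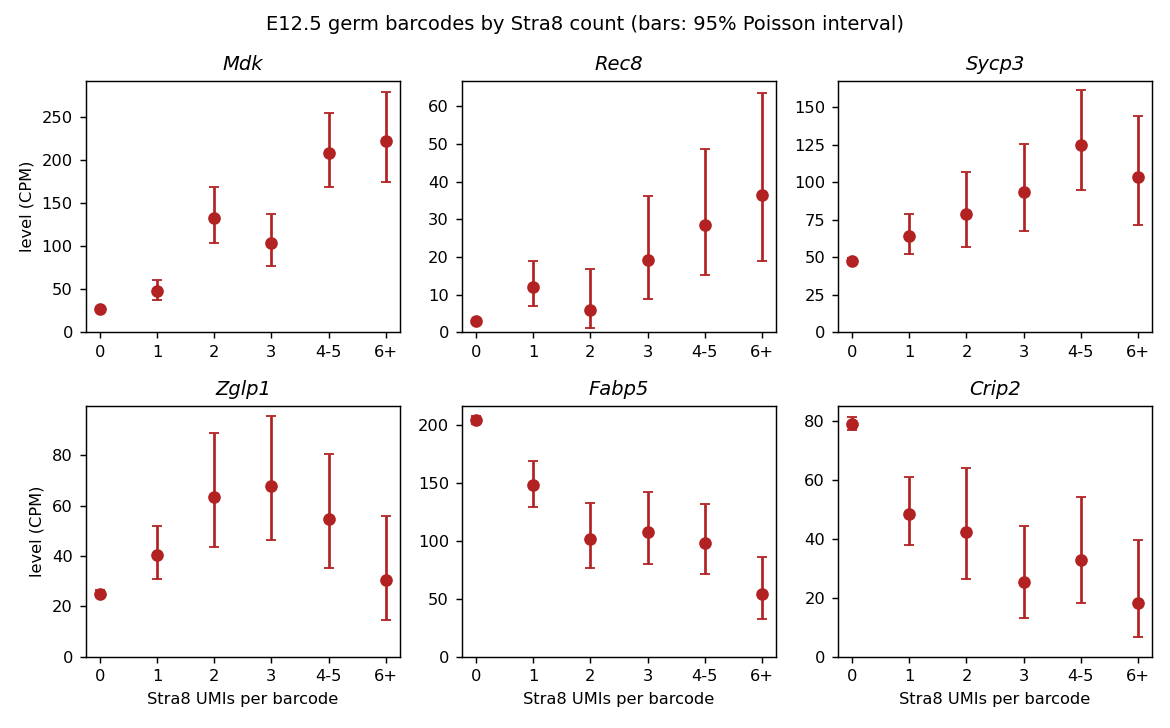
Level in CPM (linear axis from 0) of 6 genes in E12.5 germ cells grouped by their number of Stra8 UMIs; points are levels of the summed UMIs and bars 95% Poisson intervals. Mdk is at 27.2 CPM with 0 and at 221.5 CPM with 6 or more Stra8 UMIs, while Crip2 is at 79.0 and 18.2 CPM.

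When all 2494 E12.5 germ cells were clustered without Stra8, the Stra8-positive cells did not spread evenly. Cluster 7, of 107 cells and led by Mdk, BC048679, Id1, Id3 and Phlda2, held 34 of the 76 Stra8-positive cells (44.7%) and 2.43% of the 0-Stra8 cells. Cluster 2, led by Sdc4, Mael, Dtl, Epcam and Fbxo6, held 15 Stra8-positive cells (19.7%) and 7.15% of 0-Stra8 cells, and cluster 5, led by histone genes, held 12 (15.8%) and 13.1%. The small clusters 8 and 9, led by the p53 targets Phlda3 and Cdkn1a and by Cbx3 and Actb, held 0. They have 57 and 39 cells, too few to read an absence at a share of 3.05% over all germ cells. Among the 14 nearest neighbours of a cell, 24.6% on average were Stra8-positive around a Stra8-positive cell, 9.83% around a cell with 1 Stra8 UMI and 0.949% around a 0-Stra8 cell. At a lower resolution of 0.5 no cluster held over 30.3% of the Stra8-positive cells.

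**Figure D5:**
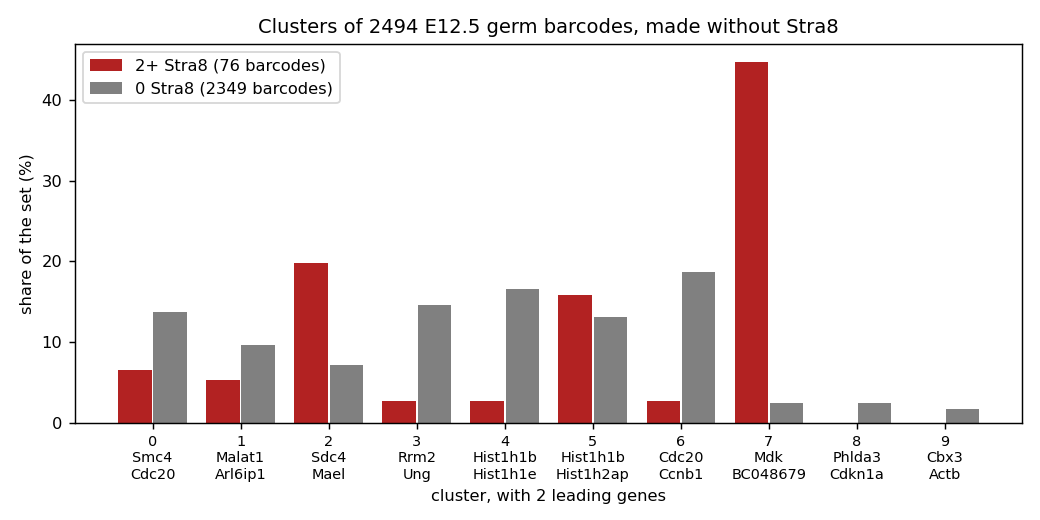
Share of the 76 Stra8-positive cells (red, left bars) and of the 2349 cells with 0 Stra8 UMIs (grey, right bars) in each of 10 clusters of E12.5 germ cells made without Stra8, in percent from 0. Cluster 7 holds 44.7% of the Stra8-positive and 2.43% of the 0-Stra8 cells.

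The same rule in the E13.5 library, which did not choose the E12.5 cells, gave 21 Stra8-positive cells with 75 Stra8 UMIs and a median depth of 16283 UMIs, against 21911 UMIs in the 2466 0-Stra8 cells. With cells thinned to equal depth the E13.5 Rec8 ratio was 5.27 (unthinned value below), and for the other E13.5 values the part of this gap in depth was not tested. Stra8-positive cells were 3.05% of germ cells at E12.5 (2.41 to 3.80%) and 0.824% at E13.5 (0.511 to 1.26%), and stage and library cannot be told apart. Of 6835 genes compared at E13.5, 294 were at least 1.5-fold higher with an interval above 1 (4.3%) and 156 at least 1.5-fold lower with an interval below 1 (2.28%). Rec8 was again higher, at 23.1 and 4.67 CPM with 8 UMIs (4.95-fold, 2.12 to 9.91). Mdk stood at 63.6 and 21.6 CPM (2.94-fold, 1.84 to 4.48). Id1 was 4.04-fold higher (1.83 to 7.75) with 9 UMIs and Calcoco2 4.97-fold (2.13 to 9.94) with 8, each in 5 of the 21 cells. Rec8, Id1 and Calcoco2 lay under 10 CPM in the E13.5 0-Stra8 cells, so the shares above do not cover them. Sycp3 was 2.21-fold (1.60 to 2.98), Tex15 3.41-fold (2.66 to 4.30) and Meioc 5.23-fold higher (2.23 to 10.5).

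Part of the E12.5 difference was seen again at E13.5. Of 6399 genes compared at both stages, 176 were higher at E12.5 and 266 at E13.5, and 33 were higher at both, which is 18.8% of the E12.5 genes and 12.4% of the E13.5 genes, against 4.16% of all genes higher at E13.5. Of the 176, 132 (75.0%) had a ratio above 1 at E13.5, against 51.0% of all genes. On the lower side, 164 and 137 genes shared 10, which is 6.10% and 7.30%, against 2.14% of all genes lower at E13.5. The 10 included Fabp5 (0.459 at E12.5 and 0.396 at E13.5), Ldhb (0.663 and 0.571), Slc25a5 (0.594 and 0.634) and Fermt1 (0.377 and 0.173). The E13.5 value of Fermt1 rests on 1 UMI in the Stra8-positive cells (interval 0.00439 to 0.969). For other genes the E13.5 interval included 1. Zglp1 and Rara had E13.5 ratios of 1.39 (0.716 to 2.43) and 1.47 (0.779 to 2.52), Brdt 0.858 (0.392 to 1.63) and Lefty1 0.931 (0.688 to 1.23), and the difference between stages was not tested. Sycp1 stood at 254.5 and 183.8 CPM at E13.5, a ratio of 1.38 (1.11 to 1.71), against 58.5 and 25.0 CPM at E12.5.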

How the data were processed

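The authors deposited raw UMI counts per gene and barcode, 1 table per stage (E12.5: 2847 barcodes, 16180 genes and 60383440 UMIs; E13.5: 2992, 16430 and 59842242). Per the submitters' processing notes, the tool was Cell Ranger, with no version listed, and the build mm10 (GRCm38); which gene annotation was used is not given in these sources. Germ cells and Stra8-positive cells were chosen by the rule in the report, and the cells, gene lists and alternatives were chosen with earlier results of these data known. Counts were summed per set and expressed as CPM. Each ratio carries a 95% Clopper-Pearson interval on the split of its UMIs between the sets, each level an exact Poisson interval and each share an exact binomial interval, while a count of 0 is read as allowing 3 of the total; UMIs of a cell are not replicates, so no p-value was computed. A gene was called higher or lower at 1.5-fold with an interval excluding 1, at 10 CPM or more in 0-Stra8 cells.

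Named genes were the 15 highest and 15 lowest ratios with an interval excluding 1 (no predicted, haemoglobin, ribosomal protein or mitochondrially encoded genes), the 10 scarcer genes seen in the most Stra8-positive cells, each list's most abundant and extreme members, and a fixed set. Further list members were named after their values were seen. For shares at equal depth, cells were downsampled to 15000 UMIs and shallower cells dropped. Clustering used scanpy 1.11.5 and igraph 0.11.9 (2000 variable genes without Stra8, 30 components, 15 neighbours, resolution 1). Scrublet (expected rate 6%) called 65 of 2621 barcodes at E12.5, which were kept in the main comparison. TMM factors came from edgeR 4.0.16. Gene positions are from GENCODE vM21 and promoters from RefSeq (39 of 51 genes matched). The libraries share 24 barcode sequences, 1 of them in a Stra8-positive cell. Some single-gene results are not reported here.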

Additional observations from a re-analysis of the deposited data

Results flagged for a closer look

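Of genes at least 1.5-fold apart with an interval excluding 1 at both stages, 7 lay on opposite sides of 1, and the difference between stages was not tested for any of them. Cdkn1c, a cell cycle inhibitor, had a ratio of Stra8-positive over 0-Stra8 cells of 1.64 at E12.5 and 0.620 at E13.5. It was 1 of 176 genes higher at E12.5, while 2.14% of all genes compared at both stages were lower at E13.5. The other 6 were lower at E12.5 and higher at E13.5. They came from 164 genes lower at E12.5, while 4.16% of all genes were higher at E13.5. No excess of reversals is read from these counts. Ccne1, cyclin E1, had ratios of 0.617 and 2.11, and the signalling inhibitor Spred1 0.636 and 2.17. Srrd had 0.493 and 2.74, the helicase Ddx52 0.650 and 1.55, Smg8 0.553 and 2.31, and the transcriptional cofactor Ldb1 0.643 and 2.28. In the E13.5 library, 443 barcodes outside the germ cell rule held 5 Stra8 UMIs in 3 barcodes, at 4.30 CPM. At E12.5, 353 such barcodes held 1 UMI, at 1.59 CPM. These counts are too few to compare the stages.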

How the results depend on the processing

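No paired analysis was possible because each stage has 1 library. The E12.5 Rec8 ratio stayed between 5.56 and 8.97 and the Y-linked ratio between 0.971 and 1.10 under the alternatives, and the E13.5 Rec8 ratio between 2.32 and 7.42. Higher and lower genes numbered 10 and 44 at 50 CPM or more, 696 and 309 with no minimum level, 95 and 114 with cells of 1 or more Stra8 UMIs (145 cells), and 130 and 394 without each gene's top cell. The meiosis median over genes with 3 or more UMIs in each set, 0.38, became 0.32 with TMM, 0.45 over genes with 1 or more UMIs, 0.56 at 3 or more Stra8 UMIs, 0.61 thinned, 0.45 at equal weight per cell, 0.46 without Scrublet calls and 0.45 without the deepest cell. The S phase median became -0.23 with TMM, -0.13 with the other denominator, -0.092 and -0.084 at 3 or more and 1 or more Stra8 UMIs, -0.13 weighted by phase, -0.14 at 0.5% germ markers and -0.22 without each gene's top cell. The G2/M median became -0.043 with TMM, 0.056 with the other denominator, -0.023 and -0.026 at 3 or more and 1 or more Stra8 UMIs, -0.058 thinned, -0.011 at equal weight, -0.023 at 0.5% germ markers, 0.043 under 5% mitochondrial UMIs, -0.019 without the deepest cell and -0.060 without each gene's top cell. The largest cluster share became 30.3% at resolution 0.5. The causes were not tested. Of 927 recomputed log2 ratios of 58 genes, 909 stayed within their counting interval and 18 moved out of it. Among genes whose main interval excluded 1, 0 changed sign, and sign changes of the other genes were not counted. Slc7a7 had no UMI left when thinned, and the minimum level does not touch a ratio. Leaving out shared barcodes and the E13.5 alternatives were chosen after seeing the data.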

Other observations

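Among the 33 genes higher at both stages were Gnas, the stimulatory G protein alpha subunit, at 100.1 CPM in Stra8-positive and 54.4 CPM in 0-Stra8 cells at E12.5 (1.84-fold, 1.57 to 2.14; 1.89-fold at E13.5), and the cytokine receptor kinase Jak1 (1.52-fold, 1.30 to 1.77; 1.94-fold at E13.5). The imprinted receptor Igf2r was 2.07-fold higher at E12.5 (1.53 to 2.76) and 1.99-fold at E13.5 (1.02 to 3.49). Sp5, a Wnt target, was 1.78-fold higher at E12.5 (1.21 to 2.52) and 2.36-fold at E13.5 (1.35 to 3.86), and Alpl 1.93-fold and 1.89-fold. The actin-binding protein Cotl1 stood at 25.9 and 59.0 CPM at E12.5 (ratio 0.438, 0.320 to 0.586), with an E13.5 ratio of 1.31 (0.629 to 2.42). These genes were named after their values were seen. Of 10 stress genes at 10 CPM or more, 1 was higher at E12.5, Hspb1 (1.53-fold, 1.03 to 2.17), and 0 were lower.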
